A study of Homo sapiens with 9 samples.

Results

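The mRNAs of 9 human genes that drive the cell cycle were examined for where RNA-binding proteins (RBPs) crosslinked to them. The genes were the D-type cyclins CCND1, CCND2 and CCND3, the cyclins CCNE1, CCNA2 and CCNB1, and the cyclin-dependent kinases CDK1, CDK4 and CDK6. They were chosen by name and not by their values, and a peak belonged to a gene where it overlapped the gene on its strand (GENCODE 44, GRCh38). The 54 libraries together held 2717 of 2665030 peaks called by CLIPper, and 2278 of 2478204 merged peaks, in these genes. All 9 genes had a merged peak, among 19144 genes that did.

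D-type cyclins bind CDK4 and CDK6 and start the phosphorylation of the retinoblastoma protein in G1. Cyclin E then drives entry into S phase, cyclin A acts in S and G2, and cyclin B with CDK1 drives mitosis. These proteins rise and fall within a cycle, and part of that control acts on the mRNA through its splicing, its untranslated regions (UTRs) and its translation.

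Antibody-barcode eCLIP (ABC) crosslinks RBPs to RNA with UV light, pulls each RBP down with an antibody that carries a DNA barcode and reads which barcode was ligated to which RNA fragment. In the 10plex experiments, 10 barcoded antibodies were used in 1 tube, here called a pool, with 3 pools of K562 cells (an erythroid leukaemia line) and 2 pools of HEK293 cells (an embryonic kidney line, HEK293T in the sample titles). Singleplex ABC was done for RBFOX2 in HEK293 cells and for SLBP in K562 cells, with 2 replicates each. None of the samples carried a drug treatment or a genetic change in the labels, and nothing in the labels says that replicates came from separate cultures, so the spread between them may be technical.

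The 10 RBPs cover most steps in the life of an mRNA. PRPF8 and SF3B4 are parts of the spliceosome, at the 5′ splice site and at the branch point, and RBFOX2 is a regulator of alternative splicing that binds GCAUG. DDX3 is a helicase and EIF3G a subunit of an initiation factor, both acting in translation initiation. FAM120A, IGF2BP2, LIN28B, PUM2 and ZC3H11A bind mature mRNAs or take part in their stability, translation or export.

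The characteristics field of the HEK293 pools names K562, against their titles, so the lines were checked by marker genes. In the K562 pools, 16 of 16 erythroid marker genes had reads, at 2555 to 3418 RPM in sum (reads in peaks per 1000000 peak reads of the library), against 4 of 16 genes at 3.07 to 5.97 RPM in the HEK293 pools. Of 10 kidney-line markers, 9 had reads in HEK293 pools (837 to 1051 RPM in sum) and 6 in K562 pools (129 to 168 RPM). The markers go with the titles. Depth differed by RBP, from 13667 to 2190988 reads in peaks per library in K562 and from 19497 to 2646323 in HEK293, with PUM2 the shallowest library in every pool.

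The authors compared each peak of a 10plex library with the complement control (CC), made by adding up the reads of the 9 remaining antibodies in that tube, and called a peak enriched at P below 0.001 and a fold above 8. In the 9 genes, 67, 90 and 69 peaks were enriched in the 3 K562 pools (75.3 ± 12.7, SD, n = 3) and 68 and 57 in the HEK293 pools (62.5 ± 7.78, SD, n = 2). That was 226 of 966 peaks (23.4%) in K562, beside 20.2% of all peaks with a CC value, and 125 of 808 (15.5%) in HEK293, beside 13.3% of all. Both shares lay near those of all peaks.

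A stricter view asks which of the 90 pairs of gene and RBP held an enriched peak in every pool of a line. There were 16 such pairs in K562 of 67 with a peak (23.9%), beside 13.7% of all pairs with a peak, and 13 in HEK293 of 70 (18.6%), beside 19.7%. With P and fold limits of 1e-05 and 16 there were 5 and 4. The count falls with the number of pools that must hold a peak, so the numbers of the lines are not comparable.

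The same 7 pairs met the rule in both lines. They were FAM120A with CDK6 and CCND2, DDX3 with CCND3, LIN28B and SF3B4 with CCNA2, and PRPF8 with CCNB1 and CDK1. In K562 alone the rule was met by DDX3 with CCNA2, SF3B4 with CCNB1, EIF3G and IGF2BP2 with both CCND2 and CDK6, RBFOX2 with CCND2 and CCND3, and PRPF8 with CDK6. In HEK293 alone it was met by EIF3G, FAM120A and PRPF8 with CCNA2, LIN28B with CCND2, FAM120A with CCND3 and DDX3 with CDK4. A pair absent from a list often had an enriched peak in some of the pools, and the lists are no test of a difference between lines.

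**Figure D1:**
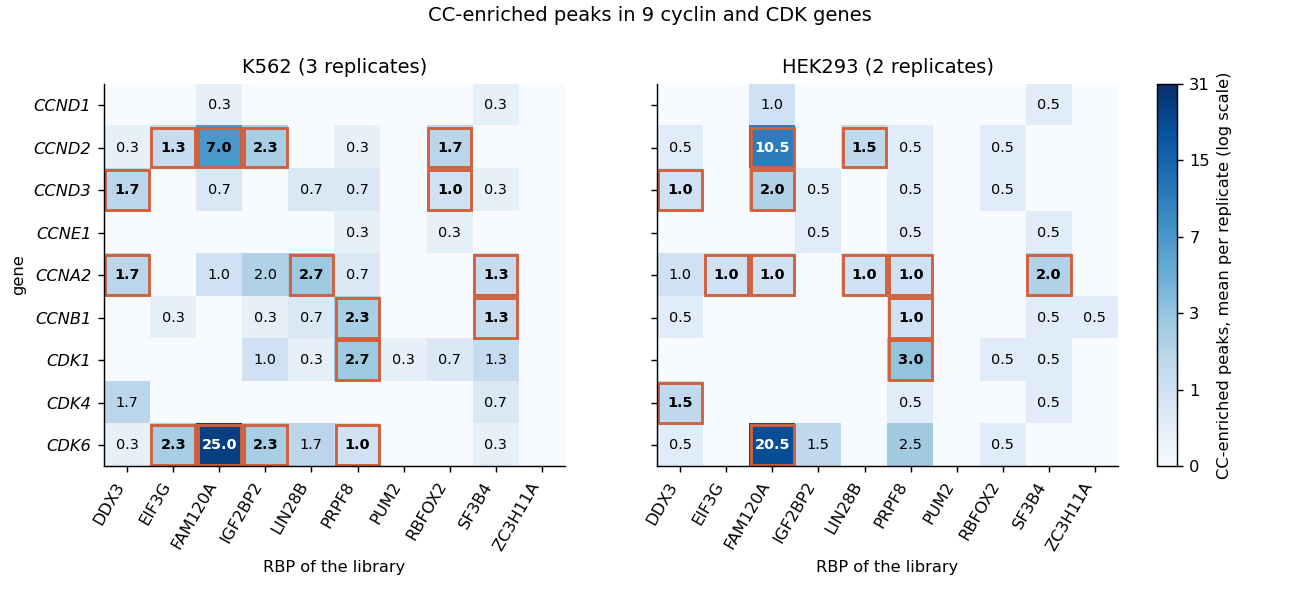
Mean number of CC-enriched peaks per pool for each gene (rows) and RBP (columns), in K562 (left, 3 replicates) and HEK293 (right, 2 replicates); the colour scale is logarithmic, empty cells are 0, and framed bold cells had an enriched peak in every replicate. FAM120A on CDK6 stands out in both lines, with a mean of 25.0 peaks in K562 and 20.5 in HEK293.

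By RBP, FAM120A gave the most enriched peaks in these genes, 102 of its 277 in K562 (36.8%), beside 18.4% of all FAM120A peaks, and 70 of 199 in HEK293 (35.2%), beside 19.5%. On CDK6 it had 75 of 101 in K562 and 41 of 58 in HEK293, and on CCND2 21 of 82 and 21 of 61. On CCNA2 it had 3 of 28 and 2 of 20, so its share rests largely on CDK6. EIF3G had 12 of 19 in K562 (63.2%), beside 31.7%, and 2 of 15 in HEK293 (13.3%), beside 20.4%. Of the 12 in K562, 7 were on CDK6 and 4 on CCND2. LIN28B lay below its own background in both lines, with 18 of 81 (22.2%) beside 37.3% in K562 and 5 of 41 (12.2%) beside 27.1% in HEK293. RBFOX2 had 11 of 116 (9.48%) beside 10.6% in K562 and 4 of 165 (2.42%) beside 5.57% in HEK293.

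DDX3 had 17 of 80 (beside 21.1%) and 10 of 60 (beside 12.7%), in K562 and HEK293. PRPF8 had 24 of 143 (beside 22.2%) and 19 of 122 (beside 16.9%), SF3B4 17 of 56 (beside 30.5%) and 9 of 43 (beside 24.1%), and IGF2BP2 24 of 180 (beside 12.0%) and 5 of 139 (beside 4.90%). PUM2 had 1 enriched peak of 3 in K562 (beside 30.1%) and 0 of 1 in HEK293 (beside 22.6%), and ZC3H11A 0 of 11 (beside 22.4%) and 1 of 23 (beside 12.0%), so little can be said of these shallow libraries.

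The enriched peaks fell in different parts of the transcripts. In the 9 genes, 56.6% ± 1.57 (SD, n = 3 pools) of them were in the 3′ UTR in K562 and 63.3% ± 2.23 (SD, n = 2 pools) in HEK293, beside 27.5% and 33.2% of all enriched peaks. FAM120A made most of that, with 102 of 102 and 70 of 70 of its peaks in 3′ UTRs, of which 75 and 41 were on CDK6. All enriched FAM120A peaks were in 3′ UTRs for 94.9% in K562 and 95.8% in HEK293.

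DDX3 and EIF3G peaks gathered near the start codon. Over both lines, 23 of 27 DDX3 peaks and 14 of 14 EIF3G peaks had their centre in the 5′ UTR or the first 150 nt of the coding sequence, a window set after the positions were seen, and so had 5 of 23 LIN28B peaks. The share of all enriched peaks in this window is not given. By centre, 58.8% of the DDX3 peaks in K562 and 6 of 10 in HEK293 were in 5′ UTRs, beside 49.5% and 47.5% of all enriched DDX3 peaks. For EIF3G this was 91.7% in K562, beside 54.0%, and 0 of 2 in HEK293, beside 52.2%. No enriched DDX3 or EIF3G peak lay in a 3′ UTR or an intron, though some merged peaks that were not enriched did. Of all enriched DDX3 and EIF3G peaks, 2.36% and 2.89% were in 3′ UTRs in K562, and 3.19% and 2.07% in HEK293. Distal introns held 3.99% and 9.49% in K562, and 7.26% and 9.97% in HEK293. With 27 and 14 peaks, the absence says little.

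IGF2BP2 had 22 of 29 peaks in 3′ UTRs, 83.3% in K562 and 2 of 5 in HEK293, beside 50.1% and 50.5% of all its enriched peaks. LIN28B was spread over the mRNA, with 10 of 23 peaks in 3′ UTRs and 5 in 5′ UTRs. In K562 these were 27.8% each, beside 17.2% and 2.76%, and in HEK293 all 5 were in 3′ UTRs, beside 24.1%. RBFOX2 had 14 of 15 peaks in introns. In K562, 54.5% were in proximal introns (beside 20.7%) and 36.4% in distal ones (beside 56.3%), and in HEK293 1 and 3 of 4 (beside 19.1% and 64.3%). These shares by RBP sum the peaks over pools and count touching peaks of a pool singly, so 1 place can count more than once. In K562, 5 of the 6 proximal RBFOX2 peaks were in CCND2 intron 1, and 3 of the 4 distal ones at 1 place in CCND3. All 5 LIN28B 3′ UTR peaks in K562 were on CCNA2. Such shares therefore rest on few places.

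**Figure D2:**
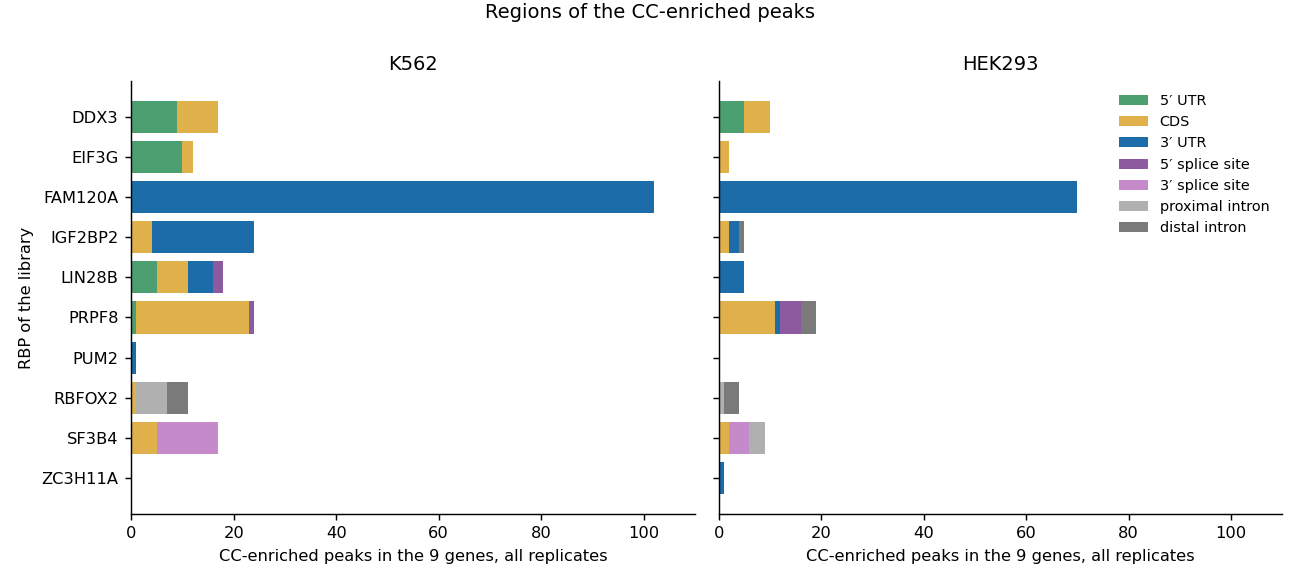
Number of CC-enriched peaks in the 9 genes by RBP (rows) and transcript region (colours), summed over the replicates of K562 (left) and HEK293 (right). FAM120A peaks are all in 3′ UTRs (102 and 70); a peak that overlaps the coding sequence counts as CDS, which places most PRPF8 peaks there although their centres lie at 5′ splice sites.

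A second measure used all reads in merged peaks, enriched or not. The reads of a gene were scaled to RPM, and on the log2 scale, with a prior of 3 reads, each RBP was compared with the mean of the other 9 in limma with the pool as a block. The fit ran over all genes and p-values were adjusted over all genes and RBPs. A gene without a peak in a library counts as 0, which the peak caller sets. In the shallowest libraries 3 reads are a high value, for PUM2 161 to 220 RPM in K562 and 94.2 to 154 in HEK293. A 0 there can therefore hide a value above that of a called RBP. In K562, 18 of the 90 pairs were higher than the other 9 RBPs at an adjusted p below 0.05, beside 13.0% of all pairs tested. In HEK293 there were 4 of 90, beside 9.94%. Without K562 pool 2, the deepest for FAM120A, 11 remained of the 18.

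Of these pairs, 3 were higher in both lines by limma: FAM120A with CDK6 and CCND1, and DDX3 with CDK4. For CCND1 in K562 the call cannot be told apart from library depth, and for CDK4 in K562 depth limits it, as given below. Low values of EIF3G, PUM2 and ZC3H11A, the 3 shallowest RBPs, are not described. Among the deeper libraries, SF3B4 was lower on CCND2 (log2 difference -2.72, SE 0.44, limma adjusted p = 7.52e-05) and on CDK6 (-3.27, SE 0.62, limma adjusted p = 0.000450) in K562, and FAM120A on CDK4 in HEK293 (-2.03, SE 0.52, limma adjusted p = 0.0202). The level of each mRNA in the cells was not measured here, and RPM also carry that level, while a difference between RBPs of the same pool sets reads of 1 lysate side by side.

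By RBP, the higher genes in K562 numbered 4 of 9 for FAM120A (beside 23.5% of all genes), 4 for PRPF8 (beside 36.9%), 3 for IGF2BP2 (beside 15.5%), 3 for DDX3 (beside 8.47%), 2 for EIF3G (beside 2.90%), 1 for LIN28B (beside 12.9%) and 1 for RBFOX2 (beside 15.2%). None passed for SF3B4 (beside 8.60%), PUM2 (beside 1.51%) or ZC3H11A (beside 4.93%), where 1, 0 and 0 genes had an unadjusted limma p below 0.05. In HEK293 there were 2 for FAM120A (beside 18.1%), 1 for IGF2BP2 (beside 9.51%) and 1 for DDX3 (beside 9.37%). The count was 0 for EIF3G (beside 4.20%), LIN28B (beside 6.30%), PRPF8 (beside 18.7%), PUM2 (beside 1.67%), RBFOX2 (beside 21.2%), SF3B4 (beside 5.80%) and ZC3H11A (beside 4.56%), and 1, 2, 1, 0, 1, 0 and 0 genes had an unadjusted limma p below 0.05.

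Of the 18 pairs in K562, 6 kept an adjusted p below 0.05 in limma under each alternative that tested them: FAM120A with CDK6 and CCND2, IGF2BP2 with CCND2, DDX3 with CCND3 and CDK4, and PRPF8 with CCNE1. The other 12 lost it when a pool was left out. Without pool 1 these were PRPF8 with CCNB1 and CDK4, RBFOX2 with CCNE1, and EIF3G and IGF2BP2 with CDK6 (limma adjusted p of 0.0538 to 0.149). Without pool 2 or pool 3 they were DDX3, IGF2BP2 and LIN28B with CCNA2, FAM120A with CCND3 and PRPF8 with CDK1, with an adjusted p of up to 0.200 in limma. Of these, PRPF8 with CDK1 lost it in 4 of 9 alternatives, also without the replicate block (limma adjusted p = 0.0668) and with a prior of 1 read (0.0649). DDX3 with CCNA2 also lost it with a prior of 1 read (limma adjusted p = 0.0551). EIF3G with CCND2 lost it without pool 2 (0.0841), and FAM120A with CCND1 without pool 3 (0.0518). In HEK293, FAM120A with CDK6 and CCND1 kept it, IGF2BP2 with CCND1 lost it without pool 2 (limma adjusted p = 0.0573), and DDX3 with CDK4 without pool 1 (limma adjusted p = 0.0512).

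**Figure D3:**
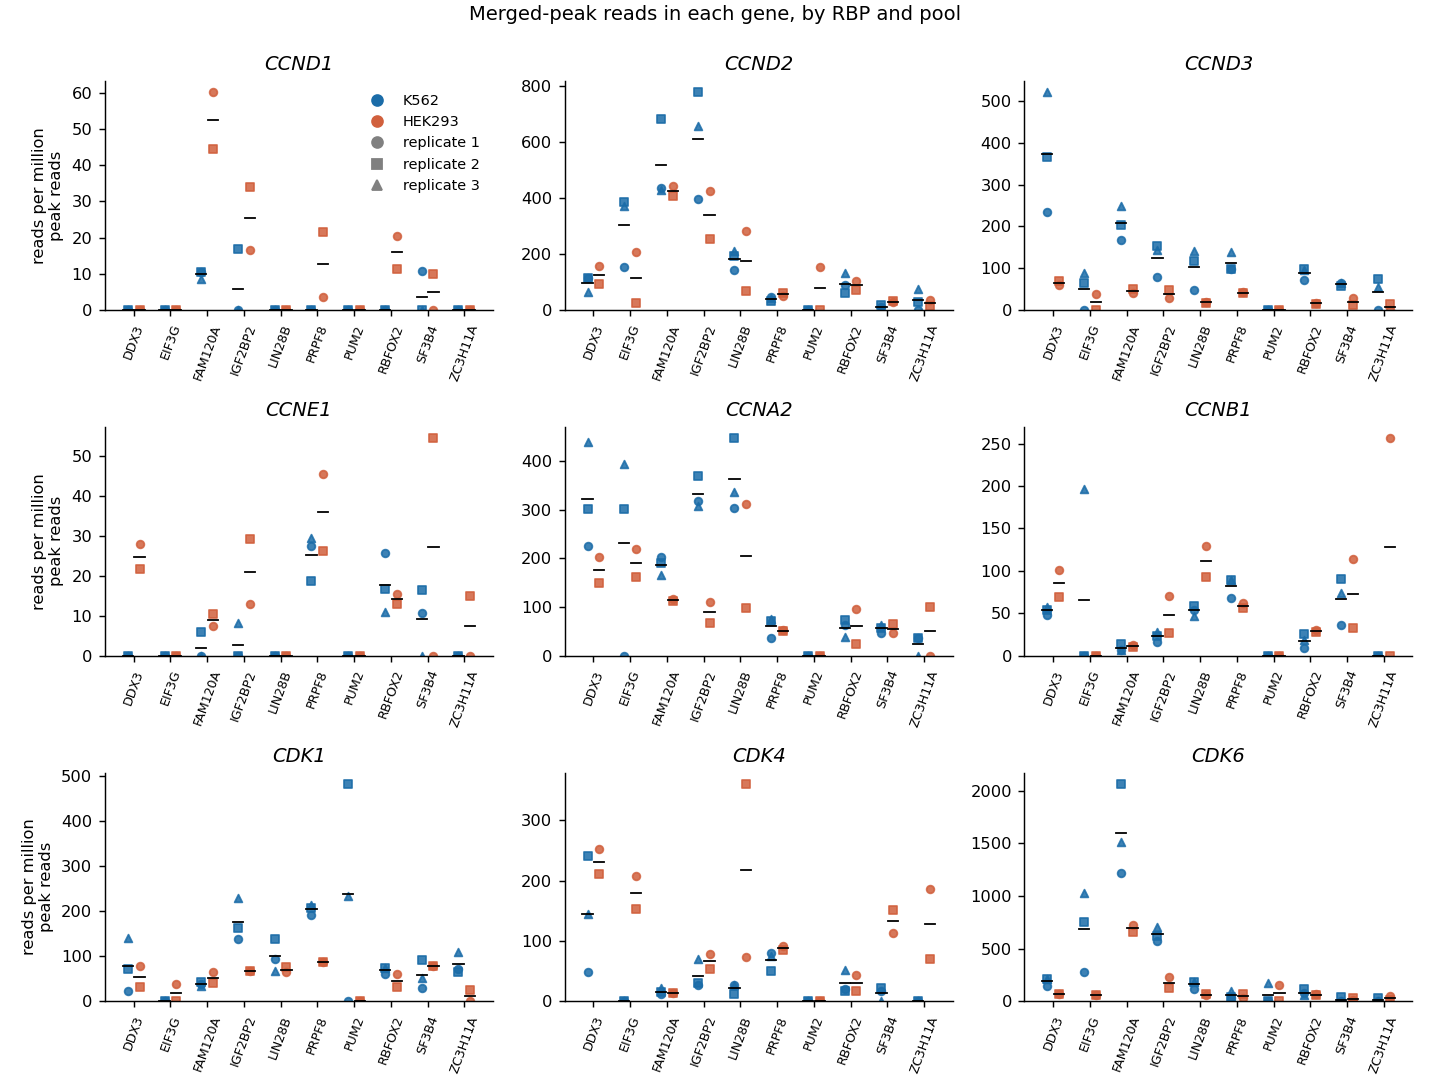
RPM of each gene, that is reads in its merged peaks per 1000000 peak reads of the library (linear axis, a scale for each panel), for the 10 RBPs; points are pools (blue K562, orange HEK293; circle, square and triangle for replicates 1, 2 and 3) and bars their means. On CDK6, FAM120A reaches 1220.3 to 2067 in K562 and 662 to 723 in HEK293.

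CDK6 (ENSG00000105810, chr7:92604921-92836573, minus strand) encodes the kinase that partners D-type cyclins, and its 3′ UTR of 10222 nt is the longest of the 9 genes. FAM120A had 22, 32 and 21 enriched peaks there in the K562 pools and 24 and 17 in the HEK293 pools. It gave 1220.3, 2067 and 1513 RPM on CDK6 in K562, and 723 and 662 in HEK293. In each of the 5 pools this was the highest value of the 10 RBPs. The log2 difference from the other 9 was 4.12 (SE 0.62, limma adjusted p = 3.56e-05) in K562 and 3.66 (SE 0.89, limma adjusted p = 0.0157) in HEK293.

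The enriched FAM120A peaks covered 9.04% to 15.3% of the CDK6 3′ UTR in K562 pools and 8.64% to 8.93% in HEK293 pools. They clustered in its middle. A site, meaning a run of overlapping enriched peaks with at least 1 from every pool of the line, was found 9 times in K562, from 3341 to 6191 nt after the stop codon, and 11 times in HEK293, from 2159 to 5879 nt. In each line 7 of them overlapped a site of the other line. Here and below, the reads and log2 folds of a site are those of its peak with the highest fold in each pool.

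The highest site in K562 was chr7:92610878-92611048, with 95, 301 and 111 reads in the highest-fold peak of each pool. The log2 folds of these peaks over the CC were 5.19, 5.69 and 4.29, with a mean of 5.06 ± 0.71 (SD, n = 3). The highest in HEK293 was chr7:92610791-92610856, with 62 and 60 reads and log2 folds of 5.54 and 7.52 (mean 6.53 ± 1.41, SD, n = 2). In that site, HEK293 pool 2 also had a peak of 107 reads at a log2 fold of 6.36. Where few CC reads were left, as with 1 read behind the 7.52, the fold has a wide counting error. The 30 bases at the centre of the top peak of each site are shown in the RNA's direction (chr7:92611004-92611033 and chr7:92610829-92610858, GRCh38, minus strand), with no letters in capitals because no motif was searched for FAM120A.
CDK6 3′ UTR, centre of the K562 peak: catctggtaactgtgggattaatatggtcg
CDK6 3′ UTR, centre of the HEK293 peak: atgtgtttcctatgccaccaatacttttga

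The FAM120A peaks on CDK6 were somewhat richer in A than FAM120A peaks at large, at 34.3% A and 17.7% G in K562, beside 30.5% and 20.3% over all its enriched peaks. In HEK293 they held 33.6% A and 16.3% G, beside 32.4% and 18.8%. These are descriptions of overlapping peaks in 1 transcript.

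IGF2BP2, known for binding and stabilising 3′ UTRs, gave 577, 623 and 706 RPM on CDK6 in K562 and 233 and 125 in HEK293. It was higher than the other RBPs in K562 (log2 difference 2.69, SE 0.62, limma adjusted p = 0.00286), and in HEK293 the difference was 1.45 (SE 0.89, limma adjusted p = 0.300). Its enriched peaks (1, 2 and 4 in K562, 3 and 0 in HEK293) lay, where in the 3′ UTR, on either side of the stretch with the FAM120A sites. The CC of IGF2BP2 holds the FAM120A reads, so an IGF2BP2 peak within that stretch is harder to call enriched. Of 61 merged IGF2BP2 peaks in this 3′ UTR in K562, 7 were enriched, and no separation of the 2 RBPs is read from these positions.

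EIF3G was on the other end of the CDK6 mRNA. It gave 277, 751 and 1028 RPM in the K562 pools and 64.6 and 61.2 in HEK293, so the lines did not overlap. In K562, the difference from the other RBPs was 2.60 (SE 0.62, limma adjusted p = 0.00376), and of its 7 enriched peaks 6 were in the 5′ UTR and 1 in the coding sequence. The difference between lines was -2.87 (SE 1.12, HEK293 minus K562, limma adjusted p = 0.128). It rests on 9 to 47 reads per K562 library and 5 and 8 in HEK293. Stretches of CDK6 overlap the annotated genes ENSG00000287932 and RNU6-10P on its strand, so reads there could belong to either.

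**Figure D4:**
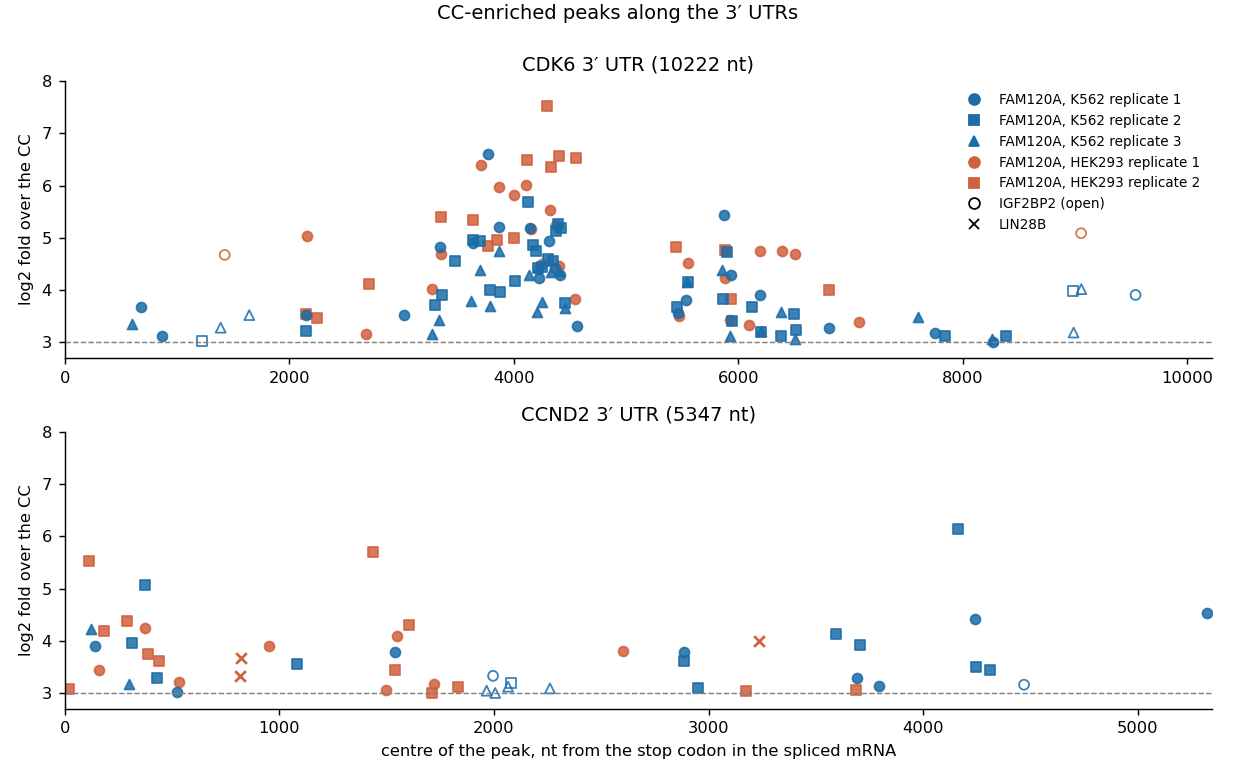
Position of each CC-enriched peak along the 3′ UTR of CDK6 (top) and CCND2 (bottom), in nt from the stop codon, against its log2 fold over the CC; filled symbols are FAM120A, open symbols IGF2BP2 and crosses LIN28B, in blue for K562 and orange for HEK293, and the dashed line is the limit of a fold of 8. The FAM120A sites shared by all pools of a line lie from 2159 to 6191 nt after the stop codon of CDK6.

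CDK4 (ENSG00000135446, chr12:57747727-57756013, minus strand), the other kinase of the D-type cyclins, was taken up by DDX3. DDX3 gave 48.3, 241 and 145 RPM in K562 and 251 and 211 in HEK293. The log2 difference from the other RBPs was 2.58 (SE 0.39, limma adjusted p = 4.02e-05) in K562 and 2.02 (SE 0.52, limma adjusted p = 0.0208) in HEK293. EIF3G, PUM2 and ZC3H11A had no CDK4 peak in K562. There 3 reads would have been 92.3 RPM for EIF3G and 220 for PUM2 in pool 1, and 175 for PUM2 in pool 3. In these pools DDX3 can therefore not be set above the shallow libraries. In HEK293 pool 2, LIN28B was above DDX3, as given below. Enriched DDX3 peaks numbered 0, 4 and 1 in K562 and 2 and 1 in HEK293.

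In HEK293 the site held by both pools was chr12:57751714-57751737, 24 nt in exon 2 at the start codon, with 20 and 16 reads and a mean log2 fold of 3.37 ± 0.09 (SD, n = 2). K562 pool 3 had an enriched peak over the same stretch (10 reads, log2 fold 3.46). Within K562, PRPF8 was also higher on CDK4 than the other RBPs (log2 difference 1.71, SE 0.39, limma adjusted p = 0.00268), with 1 enriched PRPF8 peak in all, in HEK293. PRPF8 gave 68.1 RPM on average in K562. There 3 reads would have been 64.3 to 92.3 RPM for EIF3G and 161 to 220 for PUM2. The PRPF8 call can therefore not be told apart from library depth.

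CCND2 (ENSG00000118971, chr12:4269771-4305353, plus strand) encodes cyclin D2, with a 3′ UTR of 5347 nt. FAM120A and IGF2BP2 took up its mRNA at like levels. FAM120A gave 437, 683 and 429 RPM in K562 and 444 and 407 in HEK293, and IGF2BP2 397, 778 and 655 in K562 and 426 and 253 in HEK293. In K562 both were higher than the other RBPs, by 2.80 (SE 0.44, limma adjusted p = 5.45e-05) for FAM120A and 3.04 (SE 0.44, limma adjusted p = 2.02e-05) for IGF2BP2 on the log2 scale. In HEK293 the differences were 2.57 (SE 0.84, limma adjusted p = 0.0550) and 2.16 (SE 0.84, limma adjusted p = 0.0988).

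Only FAM120A had many enriched peaks on CCND2, 8, 11 and 2 in the K562 pools and 8 and 13 in HEK293, and IGF2BP2 had 2, 1 and 4 in K562 and 0 in both HEK293 pools. The FAM120A peaks covered 1.40% to 11.3% of the 3′ UTR in K562 and 5.33% to 11.1% in HEK293. K562 had 0 FAM120A sites shared by all 3 pools, and HEK293 had 4 shared by both pools, from 111 to 1722 nt after the stop codon. The highest was chr12:4300106-4300247 (mean log2 fold 4.48 ± 1.48, SD, n = 2).

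In intron 1 of CCND2, RBFOX2 had a site in K562 at chr12:4274453-4274561, 261 nt into the intron at its highest peak, with 26, 14 and 14 reads and log2 folds of 4.88, 4.08 and 4.10 (mean 4.35 ± 0.45, SD, n = 3). HEK293 pool 1 had an enriched peak there as well (log2 fold 3.27) and pool 2 had none. Singleplex RBFOX2 in HEK293 had a peak over the same place in both replicates, with 80 and 33 reads. EIF3G had an enriched peak at chr12:4273756-4273796, in the 5′ UTR, in each K562 pool (5, 8 and 13 reads, mean log2 fold 4.12 ± 0.28, SD, n = 3), and none in HEK293. On all its CCND2 reads EIF3G was higher than the other RBPs within K562 (log2 difference 1.89, SE 0.44, limma adjusted p = 0.00291). Stretches of CCND2 overlap ENSG00000285901 on its strand, as do those of CCND3 with RNU6-761P and of CDK4 with MIR6759, and reads there cannot be assigned with certainty.

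LIN28B, which binds GGAG in the pre-let-7 hairpin and in mRNAs, had a CCND2 site in HEK293 at chr12:4300797-4300845, 820 nt after the stop codon, with 15 and 10 reads and a mean log2 fold of 3.49 ± 0.24 (SD, n = 2). It gave 283 and 67.8 RPM on CCND2 in HEK293, and 141, 194 and 209 in K562, where no LIN28B peak was enriched. The lines overlapped. The RBFOX2 site (chr12:4274489-4274518, plus strand) and the LIN28B site (chr12:4300804-4300833, plus strand, GRCh38) are shown because each holds the motif known for its RBP, in capitals.
RBFOX2, CCND2 intron 1: cgcgcgtgttcctGCATGtggctgcctctt
LIN28B, CCND2 3′ UTR: aacGGAGgcagatGGAGaccaagggtggga

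CCND3 (ENSG00000112576, chr6:41934934-42050357, minus strand), the gene of cyclin D3, was bound by DDX3 at its start. DDX3 gave 233, 367 and 522 RPM in K562 and 58.4 and 69.0 in HEK293. The lines did not overlap on this scale, which also carries the level of the mRNA. Against the other RBPs, DDX3 was higher in K562 (log2 difference 2.45, SE 0.45, limma adjusted p = 0.000316), and in HEK293 the difference was 1.81 (SE 0.73, limma adjusted p = 0.108). The difference between lines was -0.92 (SE 0.81, HEK293 minus K562, limma adjusted p = 0.667).

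The DDX3 site lay in exon 1 in both lines and overlapped between them. In K562 it was chr6:41941458-41941656, with 16, 15 and 37 reads (mean log2 fold 3.26 ± 0.08, SD, n = 3), and in HEK293 chr6:41941516-41941637, with 4 and 15 reads (3.37 ± 0.37, SD, n = 2). The highest peaks had their centres 56 and 72 nt after the start codon. FAM120A gave 168, 204 and 248 RPM on CCND3 in K562 and 40.4 and 50.8 in HEK293. Within K562 it was higher than the other RBPs (log2 difference 1.59, SE 0.45, limma adjusted p = 0.0130). It had enriched 3′ UTR peaks in 4 of the 5 pools (1, 1 and 0 in K562, 3 and 1 in HEK293).

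RBFOX2 had an intronic site on CCND3 at chr6:42008943-42008999, far upstream of exon 1 of the canonical transcript, with 10, 10 and 6 reads in K562 and log2 folds of 5.50, 4.59 and 3.61 (mean 4.57 ± 0.94, SD, n = 3). HEK293 pool 1 also had it (log2 fold 4.31), and pool 2 did not. In singleplex RBFOX2 it had 8 reads in replicate 1 and no peak in replicate 2. Its GCATG is shown in capitals (chr6:42008970-42008999, GRCh38, minus strand).
RBFOX2, CCND3 distal intron: accctctctgtctGCATGttccctattccc

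CCND1 (ENSG00000110092, chr11:69641156-69654474, plus strand), the gene of cyclin D1, had few reads. The K562 pools held 13, 28 and 7 reads over all RBPs and the HEK293 pools 151 and 220. FAM120A gave 10.6, 10.5 and 8.44 RPM in K562 and 60.3 and 44.5 in HEK293. It was higher than the other RBPs in both, by 1.01 (SE 0.22, limma adjusted p = 0.00143) in K562 and 2.97 (SE 0.47, limma adjusted p = 0.00127) in HEK293 on the log2 scale. The K562 value rests on 7 to 23 reads per library. DDX3, EIF3G, LIN28B, PUM2 and ZC3H11A had no peak there, where 3 reads would have been 12.7 to 220 RPM, above FAM120A. IGF2BP2 had 16.9 RPM in pool 2 and SF3B4 10.8 in pool 1, both above FAM120A in that pool. Neither had a peak in the other K562 pools. In K562 the call can therefore not be told apart from library depth. IGF2BP2 was higher than the mean of the other RBPs within HEK293, with 16.5 and 34.1 RPM (log2 difference 1.85, SE 0.47, limma adjusted p = 0.0188). FAM120A was above it in both pools, and RBFOX2 in pool 1 (20.5 RPM). EIF3G, PUM2 and ZC3H11A had no peak, where 3 reads in pool 1 would have been 26.6 to 154 RPM, above IGF2BP2. In pool 2 this held for PUM2 (94.2 RPM). The IGF2BP2 call can therefore not be told apart from library depth either. Enriched FAM120A peaks, all in the 3′ UTR of 3195 nt, numbered 1 in K562 pool 3 and 2 in HEK293 pool 2.

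CCNE1 (ENSG00000105173, chr19:29811991-29824312, plus strand), the gene of cyclin E1, also had few reads, 29, 43 and 30 in K562 and 105 and 172 in HEK293. PRPF8 was the highest RBP on average in K562 at 27.3, 18.8 and 29.3 RPM (log2 difference 1.64, SE 0.25, limma adjusted p = 4.83e-05). RBFOX2 was higher than the others too, by 1.21 (SE 0.25, limma adjusted p = 0.00116). EIF3G, PUM2 and ZC3H11A had no CCNE1 peak in K562, where 3 reads would have been 28.0 to 220 RPM, above PRPF8 in each pool. Both K562 calls can therefore not be told apart from library depth. In no line did an RBP have an enriched CCNE1 peak in every pool.

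CCNA2 (ENSG00000145386, chr4:121816444-121823883, minus strand) encodes cyclin A2, and many RBPs had an enriched peak on it in every pool, DDX3, LIN28B and SF3B4 in K562, and EIF3G, FAM120A, LIN28B, PRPF8 and SF3B4 in HEK293. LIN28B gave 303, 447 and 337 RPM in K562 and 310 and 97.5 in HEK293. It was higher than the other RBPs in K562 (log2 difference 2.20, SE 0.64, limma adjusted p = 0.0164, and 0.00514 to 0.154 over the alternatives). In HEK293 the difference was 1.69 (SE 0.88, limma adjusted p = 0.213).

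The LIN28B site was in the same place of the 3′ UTR in both lines. In K562 it was chr4:121817044-121817139, with 19, 47 and 26 reads and log2 folds of 3.57, 4.18 and 3.61 (mean 3.79 ± 0.34, SD, n = 3). In HEK293 it was chr4:121817021-121817099, with 56 and 20 reads and log2 folds of 5.06 and 3.27 (mean 4.16 ± 1.26, SD, n = 2). The highest peaks lay 565 and 572 nt after the stop codon. K562 pools 1 and 2 had enriched LIN28B peaks in the 5′ UTR as well, with 17 and 37 reads.

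DDX3 had a CCNA2 site in the 5′ UTR in K562, at chr4:121823730-121823856, with 7, 16 and 38 reads (mean log2 fold 4.19 ± 0.28, SD, n = 3), and HEK293 pool 2 had an enriched peak there (log2 fold 3.22). On all CCNA2 reads DDX3 gave 225, 301 and 440 RPM in K562 and 203 and 150 in HEK293. Within K562 it was higher than the other RBPs (log2 difference 1.98, SE 0.64, limma adjusted p = 0.0300). IGF2BP2 gave 318, 369 and 307.5 RPM in K562 and 110.2 and 67.1 in HEK293, and within K562 it was also higher than the other RBPs (log2 difference 2.08, SE 0.64, limma adjusted p = 0.0232).

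The highest CCNA2 site in HEK293 was that of PRPF8 at the 5′ splice site of intron 2 (chr4:121822364-121822405, minus strand), with its highest peak centred 18 nt into the intron. It had 5 and 8 reads, against 1 CC read in each pool, and log2 folds of 4.87 and 5.53 (mean 5.20 ± 0.47, SD, n = 2).

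CCNB1 (ENSG00000134057, chr5:69167135-69178245, plus strand) encodes cyclin B1. PRPF8 was higher on it than the other RBPs in K562 (log2 difference 1.77, SE 0.52, limma adjusted p = 0.0162), at 68.4, 88.9 and 89.4 RPM, and gave 61.9 and 56.1 in HEK293. EIF3G had 9 reads in all in K562, from pool 3, and was above PRPF8 there. PUM2 had no peak, where 3 reads would have been 161 to 220 RPM, above PRPF8 in each K562 pool. The K562 call can therefore not be told apart from library depth. PRPF8 had 1, 3 and 3 enriched peaks in K562 and 1 and 1 in HEK293. These lay at the 5′ splice sites of introns 2, 3, 4, 5 and 8, and not at a shared site in every pool. LIN28B had an enriched peak in exon 4 in K562 pools 1 and 2 (4 and 8 reads, log2 folds of 5.03 and 4.79) and none in the other pools.

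Stretches of the LIN28B peaks of CCNA2 (chr4:121817053-121817082, minus strand) and CCNB1 (chr5:69171374-69171403, plus strand, GRCh38) are shown with GGAG in capitals.
LIN28B, CCNA2 3′ UTR: tcaacagaggttgGGAGtggaagagggtgg
LIN28B, CCNB1 coding sequence: ggatgcagaagatGGAGctgatccaaacct

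GGAG was searched on the strand of the RNA in each peak with 50 nt on both sides. It was there in 13 of 18 enriched LIN28B peaks of the 9 genes in K562 (72.2%), beside 66.4% of all enriched LIN28B peaks, and in 4 of 5 in HEK293, beside 65.1%. GCATG was there in 8 of 11 enriched RBFOX2 peaks in K562 (72.7%), beside 66.5%, and in 4 of 4 in HEK293, beside 70.8%. Over merged RBFOX2 peaks, enriched or not, the shares in the 9 genes were 35.6% in K562 and 34.0% in HEK293, beside 30.2% and 34.0%. With so few enriched peaks, these shares cannot be told apart from those of all peaks by eye, and no test was made.

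CDK1 (ENSG00000170312, chr10:60778331-60794852, plus strand), the mitotic kinase, was bound by PRPF8 at the same splice sites in both lines. PRPF8 gave 191, 207 and 215 RPM in K562 and 88.3 and 87.7 in HEK293. It had 3, 3 and 2 enriched peaks in K562 and 3 and 3 in HEK293. In K562 it was higher than the other RBPs (log2 difference 1.69, SE 0.59, limma adjusted p = 0.0454), a call lost without the replicate block (limma adjusted p = 0.0668). In HEK293 the difference was 1.53 (SE 0.78, limma adjusted p = 0.202).

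The CDK1 sites of PRPF8 were at the 5′ splice sites of introns 4 and 7 in both lines, and of intron 6 in HEK293. K562 pool 1 also had an enriched peak at intron 6 (23 reads, log2 fold 3.76). At intron 4, K562 had 33, 48 and 69 reads (mean log2 fold 3.93 ± 0.49, SD, n = 3) and HEK293 27 and 37 reads (3.89 ± 0.56, SD, n = 2). At intron 7, K562 had 10, 23 and 20 reads (4.05 ± 0.62, SD, n = 3) and HEK293 22 and 16 (4.32 ± 0.15, SD, n = 2). The 3 junctions (chr10:60785780-60785809, chr10:60792046-60792075 and chr10:60792282-60792311, GRCh38, plus strand) are shown with the last 8 bases of the exon, then the intron with its first 5 bases in capitals.
CDK1, intron 4: ttgttaagGTAAAagcttaactaattttat
CDK1, intron 6: attttcagGTAGCtattaaaaactgagata
CDK1, intron 7: tgctctcgGTAAGgagtgcccttgatactg

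Of the 3 junctions, that of intron 7 holds GTAAG, and none holds GTGAG. Either of these was in 16 of 24 enriched PRPF8 peaks of the 9 genes in K562 (66.7%, with 50 nt on both sides), beside 59.9% of all enriched PRPF8 peaks, and in 9 of 19 in HEK293 (47.4%), beside 58.4%.

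Across the genes, the centres of 39 of 43 enriched PRPF8 peaks lay from -16 to 25 nt of the nearest 5′ splice site (negative in the exon), with a median of 12 nt into the intron, in 8 genes. The centres of 23 of 26 enriched SF3B4 peaks lay from -56 to -9 nt of the nearest 3′ splice site, with a median of -30 nt, in 7 genes. All 17 in K562 were among them. By centre, 100% of the SF3B4 peaks in K562 and 66.7% in HEK293 were within 100 nt into the intron from a 3′ splice site, beside 70.1% and 62.2% of all enriched SF3B4 peaks. By the centre of the peak, 87.5% of PRPF8 peaks in K562 and 68.4% in HEK293 were within 100 nt into the intron from a 5′ splice site, beside 75.6% and 62.1% of all enriched PRPF8 peaks.

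SF3B4 had its highest site on CCNB1 in K562, at the end of intron 5 (chr5:69174820-69174876), with 7, 24 and 11 reads and log2 folds of 3.82, 6.80 and 5.16 (mean 5.26 ± 1.49, SD, n = 3). On CCNA2 it had an enriched peak in every pool of both lines (1, 1 and 2 in K562, 2 and 2 in HEK293). The HEK293 sites were at the ends of intron 2 (mean log2 fold 4.57 ± 0.54, SD, n = 2, from 3 and 7 reads) and intron 3 (5.18 ± 1.66, SD, n = 2, from 9 and 11 reads). These introns' last 30 bases are shown, with the closing AG in capitals (chr5:69174847-69174876, plus strand, then chr4:121821092-121821121 and chr4:121820766-121820795, minus strand, GRCh38).
CCNB1, end of intron 5: ttattcaccctattgaaattcccattgcAG
CCNA2, end of intron 2: aatttaatcatatcttttgaattgtcccAG
CCNA2, end of intron 3: ttttaacactataaataattttctcaatAG

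**Figure D5:**
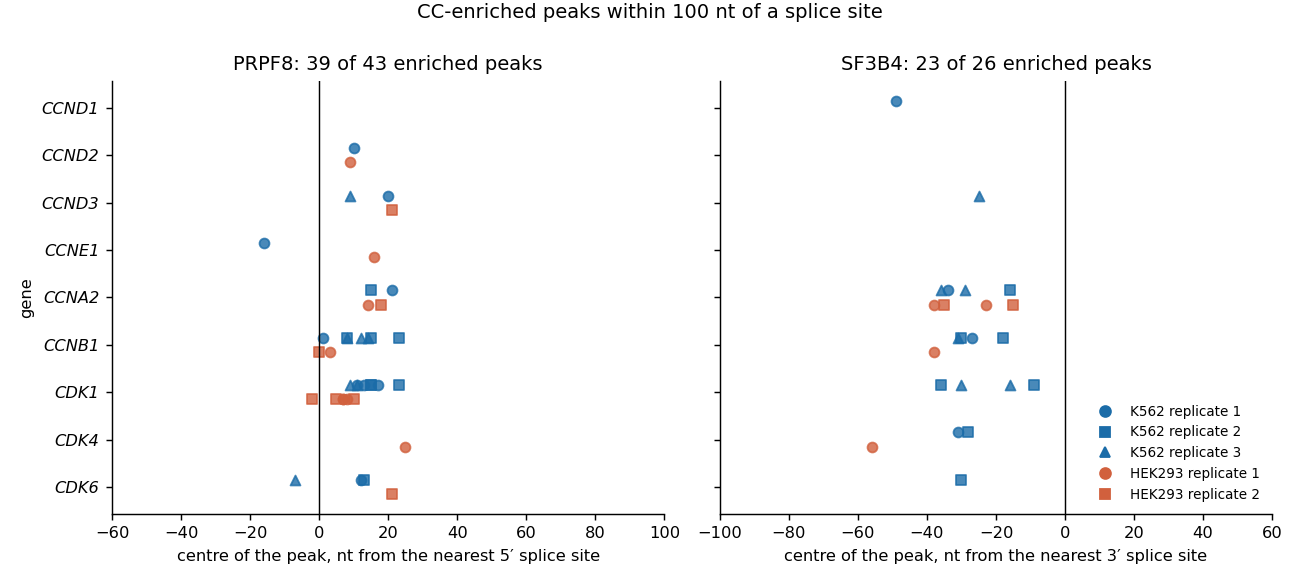
Distance in nt from the centre of each CC-enriched peak to the nearest 5′ splice site for PRPF8 (left, negative in the exon) and to the nearest 3′ splice site for SF3B4 (right, negative in the intron), by gene; blue is K562 and orange HEK293, and the shape gives the replicate. PRPF8 peaks sit from -16 to 25 nt and SF3B4 peaks from -56 to -9 nt; 39 of 43 and 23 of 26 enriched peaks are within the range drawn.

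Several of these mRNAs are textbook or reported targets of RBPs in the pool, and these pairs are given whatever their values. For LIN28B, CCNA2 had a site in both lines and CCND2 in HEK293, and CCNB1 had enriched peaks in 2 of 5 pools, as above. On CDK4, LIN28B gave 26.9, 12.7 and 26.9 RPM in K562 and 74.1 and 360 in HEK293, with 0 enriched peaks in any pool. The log2 difference was 0.22 (SE 0.39, limma adjusted p = 0.775) in K562 and 1.49 (SE 0.52, limma adjusted p = 0.0681) in HEK293. On CCND1, LIN28B had no peak in any of the 5 pools, where 3 reads would have been 12.7 to 20.2 RPM.

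On CCNB1, LIN28B gave 53.8, 59.1 and 47.1 RPM in K562 and 129.7 and 93.3 in HEK293, with log2 differences of 1.16 (SE 0.52, limma adjusted p = 0.118) and 2.18 (SE 0.90, limma adjusted p = 0.119). For DDX3 and CCNE1, the HEK293 pools had 11 reads each (27.9 and 21.7 RPM) and none of the K562 pools had a peak, where 3 reads would have been 14.5 to 24.2 RPM. No DDX3 peak on CCNE1 was enriched. The difference between lines was 1.92 (SE 0.62, limma adjusted p = 0.0503).

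IGF2BP2 was higher than the mean of the other RBPs on CDK6 within K562 and on CCND1 within HEK293, the latter not told apart from depth, as above. On CCND3, IGF2BP2 gave 79.4, 152 and 144 RPM in K562 and 27.6 and 46.7 in HEK293, and did not pass the test in K562 (log2 difference 0.79, SE 0.45, limma adjusted p = 0.238). For PUM2, CCNB1 had no peak in any pool. On CDK1 it had 9 and 4 reads in K562 pools 2 and 3 and none in the other 3 pools, and the 1 peak of pool 2 was enriched (46 CC reads, log2 fold 4.43), 198 nt after the stop codon. TGTANATA, the motif of Pumilio proteins, lay outside this peak, within 50 nt of it (chr10:60794113-60794142, GRCh38, plus strand, capitals).
PUM2, CDK1 3′ UTR: taacttaaaaaTGTAAATAttctatatgaa

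Whether an RBP's share differed between the lines was tested as the HEK293 difference minus that of K562. Of the 90 pairs, 3 passed, beside 8.64% of all pairs tested, and all were in shallow libraries. They were CDK4 with EIF3G (3.66, SE 0.66, limma adjusted p = 0.000283), CDK4 with ZC3H11A (2.98, SE 0.66, limma adjusted p = 0.00296) and CDK1 with PUM2 (-3.48, SE 0.99, limma adjusted p = 0.0231). The reads behind each were few, with at most 21 in a library, and no difference between the lines is read from them. For FAM120A on CDK6, the value was -0.68 (SE 1.12, limma adjusted p = 0.911), which leaves a wide interval.

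Singleplex RBFOX2 in HEK293 gave 188 and 129 merged peaks in the 9 genes, of which 134 and 74 were intronic. A single antibody has no CC from its own tube, so peaks were compared with the authors' external background. For singleplex SLBP the paper also took the 10plex RBPs as a CC, which was not done here. There 11 and 9 were enriched, beside 10.0% of all peaks, and in the HEK293 pools 8 of 99 and 3 of 98 RBFOX2 peaks, beside 9.20%. In CDK1, RBFOX2 of the 10plex had an enriched peak over the CC in intron 4 in HEK293 pool 1 and K562 pool 2, and both singleplex replicates had a peak there, with 32 and 31 reads. In intron 5, K562 pool 3 had an enriched peak, and singleplex had 70 and 26 reads. GCATG lay inside the HEK293 peak of intron 4 and the K562 peak of intron 5 (chr10:60786852-60786881 and chr10:60788365-60788394, GRCh38, plus strand), shown in capitals.
RBFOX2, CDK1 intron 4: ctttaacaatcttGCATGacttttggactt
RBFOX2, CDK1 intron 5: ctccaaattcattGCATGctatgtgaaaat

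SLBP, which binds the stem-loop of histone mRNAs, had 0 merged peaks in the 9 genes in replicate 1 and 2 in replicate 2. Both were in CDK6, held 6 reads in all and were enriched over the external background, as 55.3% of all SLBP peaks were.

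The rest of the pathway was described by a list of 35 other cell-cycle genes, such as further cyclins and kinases, their inhibitors, the retinoblastoma and E2F families and the CDC25 phosphatases. In K562, 33 of its 234 pairs with a peak had an enriched peak in every pool (14.1%, in 22 genes), and in HEK293 62 of 271 (22.9%, in 28 genes), beside 13.7% and 19.7% of all pairs. Of the genes with a peak of the RBP, PRPF8 had such a pair in 12 of 32 in K562 and 14 of 33 in HEK293. SF3B4 had 4 of 28 and 11 of 28, and FAM120A 7 of 32 (CCNH, CDC25A, CDK2, CDKN1B, RBL2, SKP2 and TFDP1) and 10 of 31. DDX3 had 3 of 26 and 6 of 30, LIN28B 4 of 25 and 5 of 29, and RBFOX2 1 of 29 and 6 of 33. EIF3G had 1 of 9 and 6 of 23, and IGF2BP2 1 of 30 and 2 of 31. PUM2 and ZC3H11A had 0 in K562 and 1 each in HEK293. The share of all genes is not given by RBP, so no excess is read from these counts.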

How the data were processed

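Per the labels and the study's methods, the authors trimmed reads with cutadapt (2.8 in the submitters' processing notes), split them by barcode, set repeats aside, aligned the rest to GRCh38 with STAR (2.7.6 in those notes), removed duplicates by molecular identifier and called peaks in each library with CLIPper. Called peaks were deposited with a p-value by CLIPper and, in some files, a whole-number display score. For merged peaks the authors computed a −log10 P, which reaches 400 at most, by testing each peak's reads with those of an external background library. The log2 fold that the authors deposited beside it is the ratio of those reads after scaling by depth. For 10plex libraries the authors set each peak against the CC, for K562 pool 3 in the same 2 units, and for the other pools as a chi-squared value and a p-value, leaving out repeats.

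Here the reads of each merged peak were recovered from its log2 fold and −log10 P together, and were whole in 93.2% to 100% of peaks per library. The CC reads, at least 1, came from the chi-squared statistic where that was given. This statistic was met by whole reads for 52.4% to 99.0% of peaks per library, lowest for RBFOX2 in HEK293. A log2 fold over the CC obtained from it is therefore an estimate. Regions came from GENCODE 44 (the authors used 35), in the order CDS, 5′ UTR, 3′ UTR, splice site within 100 nt, proximal intron within 500 nt and distal intron, and positions from the canonical transcript. Reads per gene were tested with limma 3.58.1 in R 4.3.3 (eBayes with trend, Benjamini-Hochberg over all genes and RBPs, pool as a block since the 10 libraries of a pool come from 1 tube). p-values measure the spread between these pools only. Other steps used Python 3.11.15, pandas 2.3.3 and bedtools 2.31.1, and the fit was tested on simulated data. All 9 genes are named; for each, the pairs past the limma threshold, the highest site and reported pairs are given, and low values of the 3 shallowest RBPs are left out. The members, lists and motifs were chosen with earlier results of these data known. Alternatives were other limits, another background, other priors and read minima, no block, and each replicate left out. eCLIP libraries were not analysed here.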

Additional observations from a re-analysis of the deposited data

Results flagged for a closer look

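The share of reads of an RBP over the other 9 differed between HEK293 and K562 by limma's test of the difference in 3 of the 90 pairs. For CDK4 with EIF3G the log2 difference was 3.66, with 16 and 20 reads in the HEK293 pools and 0 in each K562 pool, where 3 reads would have been 64.3 to 92.3 RPM (reads in peaks per 1000000 peak reads). For CDK4 with ZC3H11A it was 2.98, with 21 and 14 reads in HEK293 and 0 in each K562 pool, where 3 reads would have been 28.0 to 55.3 RPM. For CDK1 with PUM2 it was -3.48, with 0 reads in both HEK293 pools and 0, 9 and 4 in K562. Over settings and pools left out, the limma adjusted p ranged from 0.000122 to 0.00368, from 0.000886 to 0.0446 and from 0.000152 to 0.309. These are fitted values that depend on the prior, not bounds, and they come from the 3 shallowest RBPs.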

How the results depend on the processing

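With limits of P below 1e-05 and a fold above 16, K562 had 29 enriched peaks a pool and 5 pairs in every pool, and HEK293 27.5 and 4. With P below 0.001 and any fold above 1 these were 137 and 27, and 126 and 25. Against the external background they were 210.7 and 40, and 169 and 33. Leaving out 1 pool gave 68 to 79.5 peaks and 17 to 23 pairs in K562, and 57 to 68 and 20 to 29 in HEK293, where pairs rise because fewer pools must hold a peak. The 3′ UTR share over the 5 pools was 59.3% by overlap or by centre, and 43.7% for all merged peaks. Singleplex RBFOX2 had 10 enriched peaks a replicate, 6 with the stricter limits and 9 to 11 with 1 left out, and SLBP 1, then 0 and 0 to 2.

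By limma, K562 had 16 to 19 higher pairs under other priors, read minima and touching peaks counted once, 17 without the block and 11 to 16 with a pool left out, 11 without pool 2. HEK293 had 4, then 7 among genes with at least 300 reads (added after seeing the data), 5 without the replicate block and 7 without either pool, where the lone pool is assumed to vary like those of K562 and 3 of the 4 were kept. The difference between lines had 3, then 5 with a prior of 10 reads, 4 without the replicate block and 2 to 9 with a pool left out, 6 and 9 without HEK293 pools 1 and 2.

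Among named pairs, 436 values kept their direction and side of the threshold, 32 lost the call, 13 gained it and 10 changed sign. None that changed sign had been called. IGF2BP2 with CCND3 (difference between lines) became 0.021 with a prior of 1 read and -0.47 to 0.38 with a pool left out. Leaving out a pool gave -0.94 to 0.12 for PUM2 with CCNB1, -1.61 to 0.13 for LIN28B with CCNA2 and -0.18 to 2.35 for LIN28B with CDK4 (differences between lines). In K562, LIN28B with CDK4 became -0.025 with a prior of 10 reads, and leaving out a pool gave -0.16 to 0.72 for IGF2BP2 with CCND1 and -0.52 to 2.14 for PUM2 with CDK1. The causes were not tested. Depth limits PUM2, EIF3G and ZC3H11A most.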
